A study of Mus musculus with 28 samples.

Results

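The regions described here are stretches of autosomal chromatin that were in state U1 in wild-type fibroblasts labelled GS and in state U2 in 3 other conditions. Each is a maximal run of 200 bp bins on chromosomes 1 to 19 that was U1 in WT-GS and U2 in KO-GS, KO-NT and WT-NT, and was 1 kb or longer. There were 2393 such regions, covering 6.91 Mb. They lay within 15309 runs of the same minimum length, covering 61.7 Mb, that were U1 in WT-GS and U2 in WT-NT whatever their state in KO. The states themselves chose the regions, so their states, numbers and lengths are given as a description with no test.

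The cells were mouse embryonic fibroblasts (MEFs) from embryos of day 14.5, of strain 129s2, at passages 3 to 4. The conditions were SirT7-/- cells labelled GS (KO-GS), SirT7-/- cells labelled NT (KO-NT), wild-type cells labelled GS (WT-GS) and wild-type cells labelled NT (WT-NT). The labels expand neither GS nor NT, and the title of the series speaks of glucose starvation. For each condition the authors deposited 1 segmentation of the genome into 4 states, U1 to U4, which the labels tie to 2 H3K27me3 and 2 mH2A1 (macroH2A1.1) ChIP libraries. SIRT7 itself was precipitated from wild-type cells only, and its binding sites come as 1 list of peaks from WT-GS and 1 from WT-NT, each tied to 2 libraries. Because each segmentation and each list combines its replicates, no value below has a replicate error. A difference due to SIRT7 cannot be told apart from one between individual cultures. The sources used here give neither read totals nor whether the replicates came from separate embryos. No expression was measured, so the cell type could not be checked against marker genes.

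SIRT7 is an NAD-dependent deacylase of the sirtuin family that is found in the nucleus and nucleolus. MacroH2A1.1 is a splice form of a large histone H2A variant whose macrodomain binds ADP-ribose, and it is found over broad, mostly silent domains. H3K27me3 is placed by Polycomb repressive complex 2 and also forms broad domains over silent genes. The sources used here explain neither what the names U1 to U4 stand for nor which program assigned them. U1 covered most of the autosomes in every condition (72.3% in KO-GS, 73.5% in KO-NT, 69.0% in WT-GS and 69.4% in WT-NT). U2 was the next most common state, with 17.6% in KO-GS, 17.2% in KO-NT, 20.9% in WT-GS and 20.8% in WT-NT.

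Most of the regions were short. Their median length was 2200 bp, with quartiles at 1400 and 3600 bp, and the longest spanned 14600 bp. Those under 2 kb numbered 936 (39.1%) and held 18.4% of the bases, while 1137 regions from 2 kb to under 5 kb held 50.03%. A further 295 regions ran from 5 kb to under 10 kb, and 25 were 10 kb or longer. There was no natural break at the 1 kb minimum. Just inside it stood 232 regions of exactly 1000 bp, and just outside it 244 runs of 800 bp. Shorter runs of the same pattern numbered 1508 and held few bases, since the regions took in 91.5% of all 7552 kb with that pattern.

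The pattern that defines the regions was the least common of its kind. Among bins that were U2 in KO-GS, KO-NT and WT-NT, 2.41% were U1 in WT-GS. The equivalent share was 9.51% for U1 in KO-GS alone, 12.0% for U1 in KO-NT alone and 3.01% for U1 in WT-NT alone. Counted as runs of 1 kb or longer, 2393 regions were U1 in WT-GS alone, against 8057 runs in KO-GS alone, 12148 in KO-NT alone and 2630 in WT-NT alone. The total lengths were 6.91 Mb for the regions, 31.1 Mb for KO-GS alone, 40.1 Mb for KO-NT alone and 8.83 Mb for WT-NT alone. The regions were also shorter, with a median of 2200 bp against 3000 bp, 2600 bp and 2600 bp in the same order. Runs that were U1 in KO-GS alone thus outnumbered the regions 3.37 times and outmeasured them 4.50 times, and those in KO-NT alone were more numerous still. Both KO segmentations held less U2 over the autosomes (17.6% in KO-GS, 17.2% in KO-NT) than the WT ones (20.9% in WT-GS, 20.8% in WT-NT). What part this had in the counts was not tested.

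**Figure D1:**
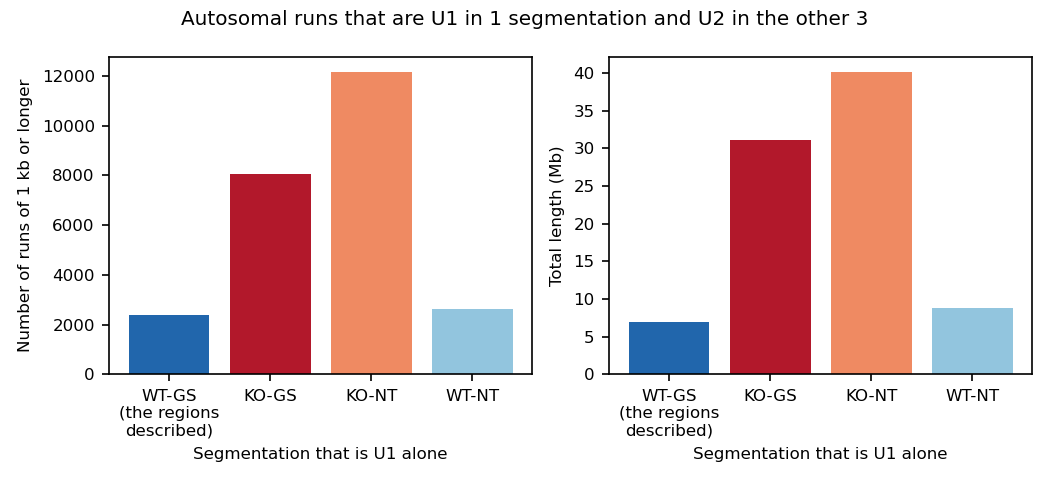
Bars give the number (left) and the total length in Mb (right) of autosomal runs of 1 kb or longer that were U1 in the named segmentation and U2 in the other 3. The regions described here, U1 in WT-GS alone, form the lowest bar in both panels (2393 runs, 6.91 Mb), and U1 in KO-NT alone the highest (12148 runs, 40.1 Mb).

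The same comparison can be made from a common starting point. Sequence that was U2 in both KO-NT and WT-NT covered 368 Mb of the autosomes. Of it, 11.7% was U1 in KO-GS and 4.99% was U1 in WT-GS. The part that was U1 in WT-GS measured 18.4 Mb, of which 56.8% was U1 in KO-GS as well and 41.1% was still U2 in KO-GS. That 41.1%, 7.55 Mb including short runs, is the pattern of the regions. In the other direction, 74.9% of the sequence that was U1 in KO-GS was still U2 in WT-GS. Where WT-GS was still U2, 9.51% was U1 in KO-GS. These shares count losses only. Over all autosomes U2 covered 17.6% in KO-GS against 17.2% in KO-NT, and 20.9% in WT-GS against 20.8% in WT-NT. In both genotypes the losses thus stood beside gains of U2 elsewhere.

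Set against all wild-type losses of U2, the regions were a minority. The 15309 runs that were U1 in WT-GS and U2 in WT-NT divided by their state in KO as follows. By bases, 11.9% was U2 in both KO-GS and KO-NT, and 50.2% was U1 in both. A further 16.8% was U2 in KO-GS and U1 in KO-NT, and 16.5% was U1 in KO-GS and U2 in KO-NT. The remaining 4.63% held U3 or U4 in at least 1 of the KO segmentations. Counted by run, 1646 (10.8%, Wilson 95% interval 10.3 to 11.3%) were U2 in both KO segmentations over most of their bases, and 7554 (49.3%, interval 48.6 to 50.1%) were U1 in both. These intervals cover counting error only. The regions sat in 2291 of the runs (15.0%), and 899 regions (37.6%) made up the whole of their run. In the rest the wild-type loss reached further than the sequence the knockout held as U2. Over all regions, including those 899, the median run around a region was 4200 bp long.

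Where the regions lay depended on which U2 they are set against. Within the U2 segments of single conditions, 48.4% lay inside in KO-GS, 57.1% in KO-NT and 65.8% in WT-NT, while 43.2% took 1 end in KO-GS, 36.9% in KO-NT and 30.5% in WT-NT. Sequence that was U2 in KO-GS, KO-NT and WT-NT together formed 48112 blocks of 1 kb or longer, and 2343 of these (4.87%) held a region. A region took 1 end of its block in 1371 cases (57.3%) and the whole block in 701 cases (29.3%). It lay inside the block, with the block continuing on both sides, in 321 cases (13.4%). The median region took 56.0% of its block, and blocks that held a region had a median of 5000 bp. In WT-GS, U2 itself began again in the very next bin for 1569 regions (65.6%, Wilson interval 63.6 to 67.4%), and lay within 5 kb of 2085 (87.1%). No U2 was left within 10 kb in WT-GS for 163 regions (6.81%). The share with U2 in the next bin was 63.8% for regions under 2 kb and 65.3% from 2 kb to under 5 kb. It was 71.9% for those from 5 kb to under 10 kb and 68.0% for the 25 of 10 kb or longer. Runs of the other kinds also lay beside remaining U2 in the segmentation that was U1: 60.7% for KO-GS alone, 52.2% for KO-NT alone and 72.5% for WT-NT alone. The regions lay in 2198 distinct U1 segments of WT-GS, some of them shared. The interval therefore covers counting error only, and differences between these shares were not tested.

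The borders of the regions were set most often by WT-GS. At 85.5% of the 2 × 2393 edges only 1 segmentation changed state. WT-GS was that segmentation at 2013 edges (42.1%), of which 1775 went to U2 and 223 to U3. KO-GS alone changed at 902 edges (18.8%), KO-NT alone at 726 (15.2%) and WT-NT alone at 453 (9.47%). The U2 segments that held the regions were several times their length, with a median of 8200 bp in KO-GS, 10600 bp in KO-NT and 11400 bp in WT-NT. The median U1 segment around them in WT-GS was 9200 bp. U2 continued on both sides of 1159 regions in KO-GS (48.4%), 1366 in KO-NT (57.1%) and 1575 in WT-NT (65.8%). In WT-GS, 1210 regions (50.6%) had U1 on one side and U2 on the other, 531 (22.2%) had U1 on both sides, and 241 (10.1%) had U2 on both sides and so formed a gap in a U2 domain. U3 or U4 touched at least 1 side of 24.6% of regions in KO-GS, 18.2% in KO-NT, 17.2% in WT-GS and 18.5% in WT-NT.

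The sequence around the regions was rich in U2, and the gap in U2 between WT-GS and WT-NT narrowed within 10 kb. In the first kilobase outward from an edge, U2 covered 66.5% of bins in KO-GS, 70.4% in KO-NT, 38.8% in WT-GS and 77.2% in WT-NT. Between 4 and 5 kb the shares were 47.2% in KO-GS, 51.1% in KO-NT, 46.3% in WT-GS and 60.3% in WT-NT. Between 9 and 10 kb they were 42.0% in KO-GS, 45.3% in KO-NT, 49.4% in WT-GS and 53.7% in WT-NT. From there outward WT-GS stood close under WT-NT, and at 49 to 50 kb it held 41.8% against 43.1% in WT-NT, with 34.3% in KO-GS and 36.9% in KO-NT. Averaged over 50 kb, U2 covered 39.5% in KO-GS, 42.6% in KO-NT, 45.4% in WT-GS and 49.8% in WT-NT. U3 and U4 together covered 10.4%, 9.66%, 10.05% and 9.65% in that order, close to their autosomal shares of 10.1%, 9.30%, 10.1% and 9.81%. For U2 the autosomal shares were lower than those around the regions in every condition, from 17.2 to 20.9%. The other patterns with U1 in 1 segmentation had U2-rich surroundings too. Over 50 kb the 4 conditions ranged from 38.7 to 53.0% U2 around runs U1 in KO-GS alone, from 33.2 to 45.2% for KO-NT alone and from 42.6 to 53.9% for WT-NT alone. In their first kilobase the segmentation that was U1 was likewise lowest in U2, with 36.7% in KO-GS, 30.1% in KO-NT and 43.2% in WT-NT.

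**Figure D2:**
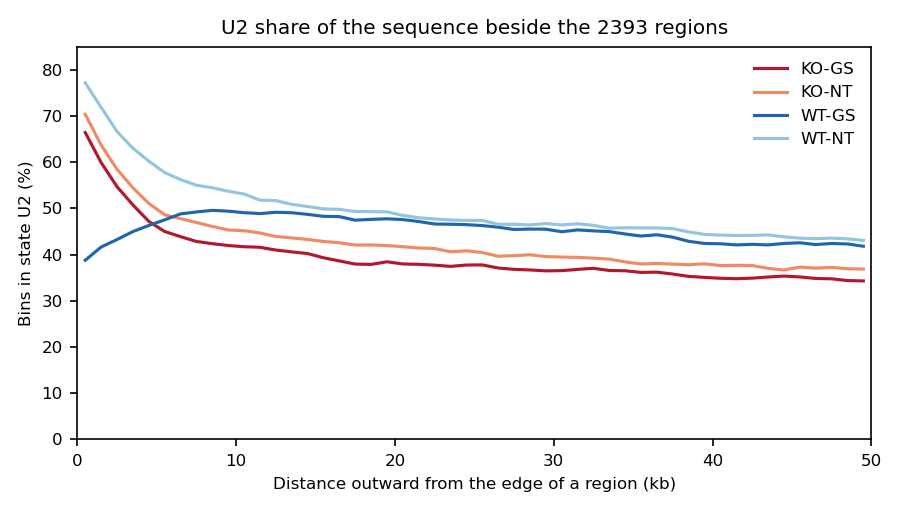
Lines show the share of 200 bp bins in state U2 (%) in steps of 1 kb outward from both edges of the 2393 regions, up to 50 kb. WT-GS starts lowest, at 38.8% in the first kilobase, passes KO-GS and KO-NT within 10 kb and then runs just under WT-NT.

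The 10 longest regions, chosen by length alone, lay on 7 chromosomes, and U2 began again in the next bin of WT-GS for 6 of them. All positions are in mouse build mm9, counted from 1. The longest lay on chromosome 4 from 80853001 to 80867600. It belonged to a U2 segment of 22000 bp in KO-GS, 22400 bp in KO-NT and 22200 bp in WT-NT. In WT-GS the same sequence was part of a U1 segment of 21800 bp that ended exactly at the region's right border, where U2 began. The 3 U2 segments thus had nearly the same extent, and WT-GS held only their right part.

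On chromosome 10, from 55069401 to 55083000, the picture was the mirror image. The U2 segment measured 31000 bp in KO-GS, 35400 bp in KO-NT and 33200 bp in WT-NT, and WT-GS kept its left part as U2 up to the region's first bin. On chromosome 16, from 57284601 to 57297800, the region was a whole U2 segment of 13200 bp in KO-GS and KO-NT and nearly the whole of one of 13400 bp in WT-NT. In WT-GS it had merged into a U1 segment of 106400 bp. A U4 bin stood at the left border or 1 bin from it in all 4 segmentations.

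The region on chromosome 7 from 99013001 to 99027000 was most of a gap in WT-GS. In WT-NT it lay inside a U2 segment of 103200 bp. In WT-GS it fell in a U1 segment of 15600 bp with U2 on both sides, and U2 covered 96.0% of the 20 kb on either side. The region's right border was that of the U1 segment, and its left border was set by KO-GS, where U2 began at the region's first bin. The same flanks were 32.0% U2 in KO-GS, 81.0% in KO-NT and 100% in WT-NT. On chromosome 7 from 103889801 to 103903000 the surroundings had lost U2 as well. There U2 covered 18.5% of the flanks in KO-GS, 29.5% in KO-NT, 0% in WT-GS and 91.0% in WT-NT, and the nearest U2 in WT-GS was 65200 bp away. U2 in these flanks was thus lower in GS than in NT in both genotypes, and the U2 segment in KO-GS measured 13200 bp.

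The other 5 of the 10 spanned 85255201 to 85269000 of chromosome 9, positions 64517201 to 64530200 of chromosome 16, the stretch 49629601 to 49641800 of chromosome 19, bases 58719401 to 58731400 of chromosome 18, and 129478201 to 129489800 on chromosome 4. Those on chromosomes 9 and 19 lay 8200 bp and 7400 bp from the nearest U2 in WT-GS, and the other 3 adjoined it. In each of these 5 the U2 segment had different borders in KO-GS, KO-NT and WT-NT. On chromosome 19, for instance, it measured 12800 bp in KO-GS, 23200 bp in KO-NT and 38600 bp in WT-NT. Of the 10 regions, 3 equalled the whole run lost in wild type, and in the other 7 the wild-type loss extended into sequence that was not U2 in at least 1 KO segmentation.

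**Figure D3:**
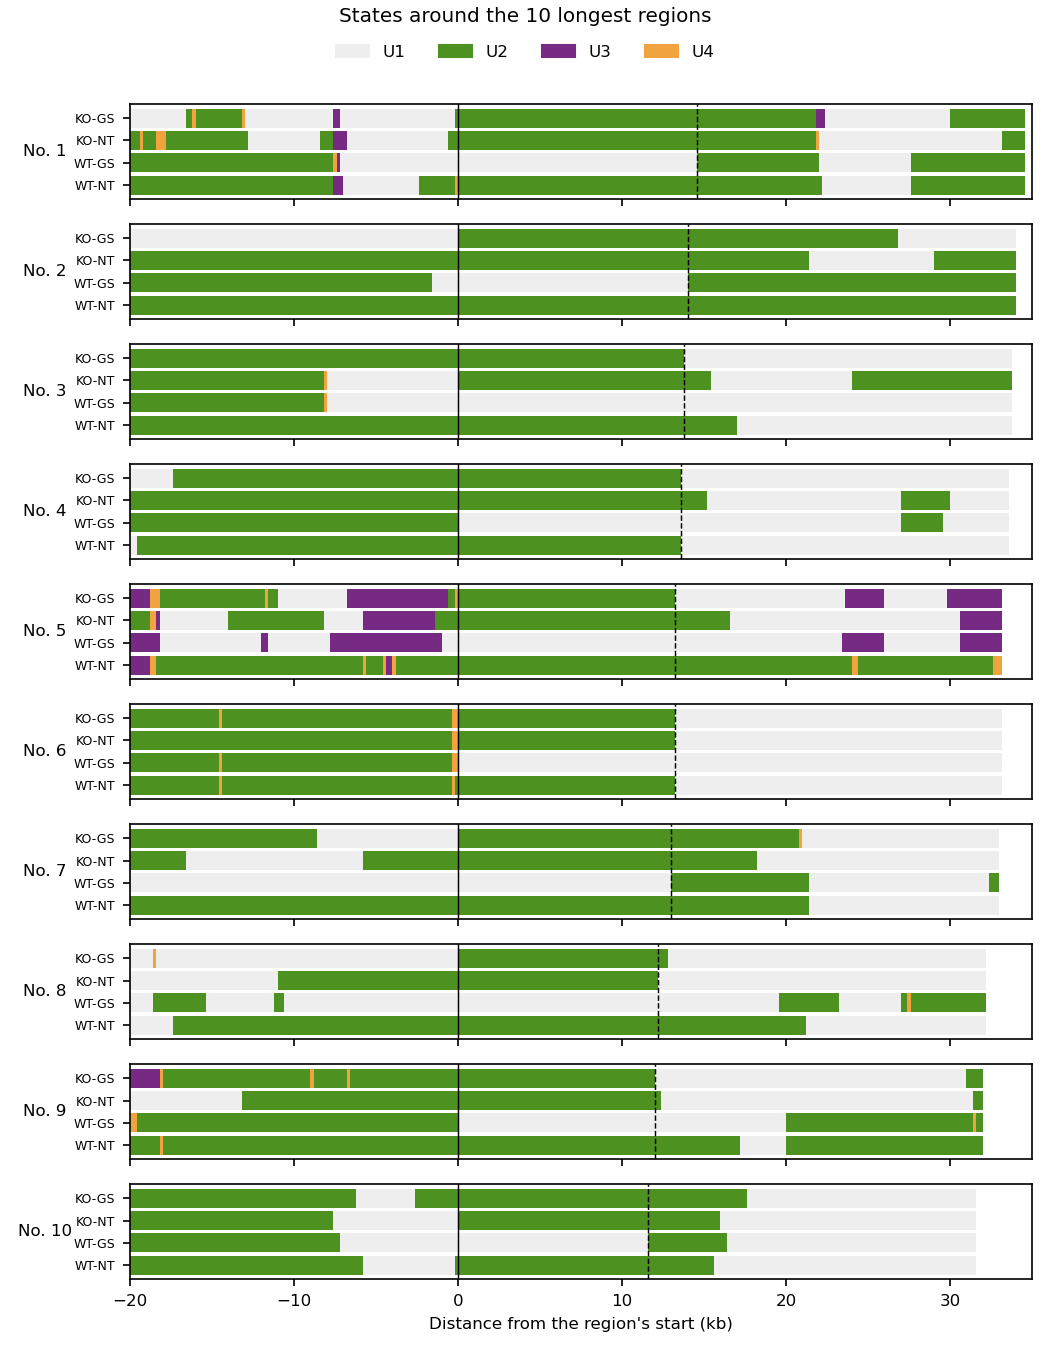
Each panel shows the states of the 4 segmentations from 20 kb before to 20 kb after 1 of the 10 longest regions, in order of length, with the distance from the region's start in kb. Between the solid line (start) and the dashed line (end) WT-GS is U1 and the other 3 rows are U2, and in 6 of the 10 panels the WT-GS row turns to U2 at one of these lines.

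The regions were spread over all 19 autosomes. A chromosome held between 59 (chromosome 19) and 207 regions (chromosome 3), with a median of 117. Per 10 Mb of chromosome the number varied from 5.84 on chromosome 7 to 15.2 on chromosome 18, with a mean of 9.77 (SD over chromosomes 2.32, n = 19). Taken as a share of the sequence that was U2 in KO-GS, KO-NT and WT-NT, the regions covered from 1.81% on chromosome 11 to 2.95% on chromosome 4, with a mean of 2.21% (SD 0.304, n = 19). Chromosome 16 stood next, with 2.75%, and chromosome 18 had 2.54%. The SDs describe spread along the genome, not between cultures.

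**Figure D4:**
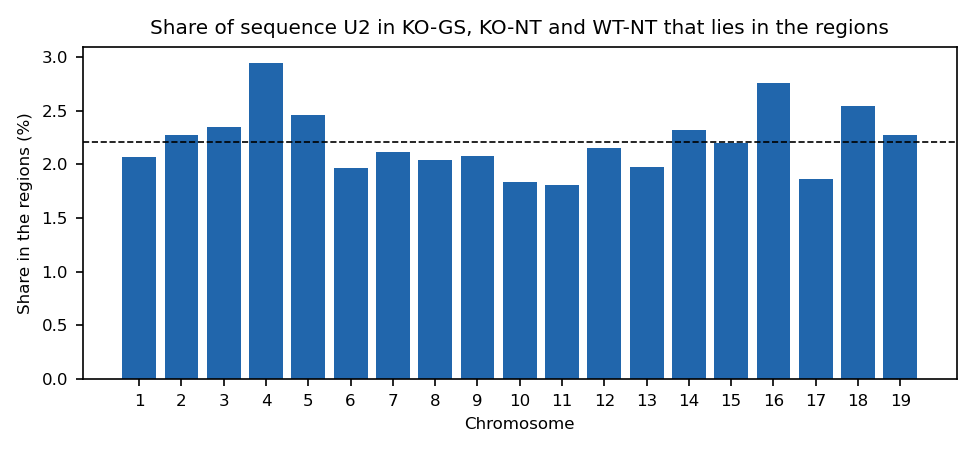
Bars give, for each autosome, the share (%) of sequence U2 in KO-GS, KO-NT and WT-NT that lay in the regions and so was U1 in WT-GS, and the dashed line is the mean of 2.21%. The bars run from 1.81% on chromosome 11 to 2.95% on chromosome 4.

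On a finer scale the spread of the regions was counted without a random placement to compare it with. Of 2482 windows of 1 Mb, 1139 (45.9%) held bases of a region, and 75 held 5 or more regions. The richest 248 windows together held 50% of the bases. Another region lay within 10 kb for 481 regions (20.1%) and within 100 kb for 1125 (47.0%), and the median distance to the nearest other region was 117 kb. Some neighbours were pieces of 1 stretch, since 95 of the runs U1 in WT-GS and U2 in WT-NT held more than 1 region. With gaps of up to 400 bp bridged there were 2293 regions. Groups chained by gaps of up to 10 kb had at most 4 members. One of these lay on chromosome 17 from 71139001 to 71155800, where 4 regions took 15.6 of 16.8 kb. Another lay on chromosome 14 from 29228601 to 29239200, where 4 regions took 8.40 of 10.6 kb.

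The window with most bases in regions was on chromosome 7 from 103000001 to 104000000, with 10 regions and 43.4 kb. It was also the scene of much loss that the knockout shared, with 96.4 kb in runs that were U1 in both GS segmentations and U2 in both NT ones. A further 97.4 kb lay in runs that were U2 in WT-NT alone, where KO-NT was already U1. U2 covered 17.8% of it in KO-GS against 32.6% in KO-NT, and 20.04% in WT-GS against 46.0% in WT-NT. The next window, on chromosome 4 from 80000001 to 81000000, went otherwise. It held 8 regions and 33.6 kb, yet U2 covered 33.6% of it in WT-GS against 29.4% in WT-NT. Losses in the regions of that window stood beside gains elsewhere in it, including 23.6 kb in runs that were U1 in WT-NT alone. The other 3 windows held 28.0 to 29.8 kb each. They were the stretches 99000001 to 100000000 and 29000001 to 30000000 of chromosome 14, and 64000001 to 65000000 of chromosome 16. In all 3, runs that were U1 in KO-GS alone took more than the regions did, with 42.8, 83.6 and 65.0 kb in that order. All 5 windows held 2.38% of the bases in regions.

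SIRT7 peaks were rare at the regions. SIRT7 binding had no part in the rule. Of the 2671 peaks in the GS list, 2272 lay on autosomes, and 8 of these overlapped a region by at least 1 bp. They touched 8 of 2393 regions (0.334%, Wilson 95% interval 0.169 to 0.658%). For comparison, a GS peak overlapped 0.340% of all 15309 runs that were U1 in WT-GS and U2 in WT-NT, and 0.336% of the 2972 runs that were U1 in both GS and U2 in both NT segmentations. It overlapped 0.299% of the 47758 runs that were U2 in all 4 segmentations and 0.275% of those that were U2 in WT-NT alone. Runs that were U1 in 1 segmentation only had a GS peak in 0.223% of cases for KO-GS, 0.206% for KO-NT and 0.228% for WT-NT. The interval of the regions contains each of these shares. No region overlapped 1 of the 58 autosomal NT peaks, and a count of 0 of 2393 allows a share of up to 0.125%.

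Per length the picture was similar. The regions held 5 GS peak midpoints, or 0.724 per Mb (exact Poisson 95% interval 0.235 to 1.69). Runs U1 in both GS and U2 in both NT segmentations held 0.918 per Mb (0.420 to 1.74), and runs U1 in KO-GS alone held 0.515 (0.294 to 0.836). Sequence that was U2 in all 4 segmentations held 0.417 per Mb (0.347 to 0.498), and the autosomes as a whole 0.919. The interval of the regions contains each of these values, so no difference was detectable with 5 peaks. The median distance from a region to the nearest GS peak was 454 kb (95% interval of the median 432 to 487 kb), against 400 kb for U1 in KO-GS alone, 596 kb for U1 in KO-NT alone and 604 kb for U2 in all 4. It was 473 kb for all runs U1 in WT-GS and U2 in WT-NT, and 455 kb for U2 in WT-NT alone. Runs U1 in both GS and U2 in both NT segmentations had 400 kb, and U1 in WT-NT alone 426 kb. A GS peak lay within 10 kb of 46 regions (1.92%) and within 100 kb of 356 (14.9%), against 1.52% and 11.1% of the runs U2 in all 4. The shares were higher than in the regions for runs U1 in both GS and U2 in both NT segmentations (2.56% and 16.5%), U1 in KO-GS alone (2.25% and 17.0%) and U1 in WT-NT alone (2.13% and 18.3%), and lower for U1 in KO-NT alone (1.48% within 10 kb, and 1336 of 12148 runs within 100 kb). Of all runs U1 in WT-GS and U2 in WT-NT, 2.20% had a GS peak within 10 kb and 15.0% within 100 kb. Runs share peaks and lie near one another, so the intervals given here are too narrow as measures of error.

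**Figure D5:**
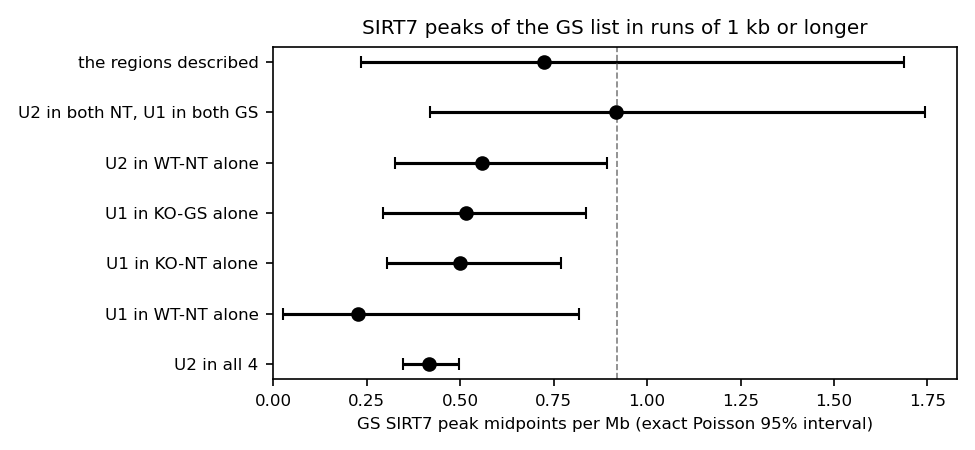
Points give the number of GS SIRT7 peak midpoints per Mb in runs of 1 kb or longer of each pattern, with exact Poisson 95% intervals for counting error, and the dashed line is the autosomal mean of 0.919 per Mb. The interval of the regions (top, 0.235 to 1.69) overlaps that of every other pattern shown.

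Among the 8 regions with a GS peak, all named here, 1 lay wholly in its peak and 2 held theirs whole. The region on chromosome 14 from 24028401 to 24031200 was covered entirely by a peak of 5168 bp, whose score of 817 from the authors ranked 203 in the list. On chromosome 8 the region from 80516601 to 80519200 held a whole peak of 857 bp (score 733), and on chromosome 17 the region from 14699801 to 14704400 held a whole peak of 1464 bp (score 625). Where a peak lies in a region the rule fixes its states, so they are not given. The peaks on chromosome 9, at the region from 88144401 to 88146800 (score 806), and on chromosome 13, at that from 81136601 to 81139200 (score 550), had their midpoints inside the region and covered 52.4% and 48.3% of it. The remaining 3 peaks touched 1 border only. They overlapped the region on chromosome 2 from 8575001 to 8576400 by 279 bp, that on chromosome 4 from 70934601 to 70937600 by 117 bp and that on chromosome 13 from 75463001 to 75464200 by 325 bp. The scores rank peaks within the list and carry no unit. The 10 longest regions lay 110 to 3420 kb from the nearest GS peak.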

How the data were processed

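Analysis started from the deposited state names (4 segmentations of H3K27me3 and mH2A1 ChIP) and SIRT7 peak lists, whose per-peak score was given by the authors on an unexplained scale reaching 1000. Tools listed without a role, per the submitters' processing notes, are deepTools 2.4.2, Bowtie, MACS 1.4.2, SAMtools 0.1.19, Trimmomatic 0.36 and FastQC 0.11.3, with builds mm9 and hg19. Coordinates are mm9, the mouse build named. Depth is unknown. Each chromosome was read as 200 bp bins, and maximal runs of 1 kb or longer were taken for each combination of states with Python 3.11.15 and NumPy 2.4.6. The run finder was tested on simulated segmentations. Named regions were the 10 longest, those overlapping a SIRT7 peak and the 5 windows of 1 Mb with most bases in regions. Regions, lists and comparisons were chosen with earlier results of these data known. With 1 segmentation per condition and the regions chosen from the same states, no p-value was computed. Intervals are Wilson, exact Poisson (SciPy 1.17.1) or order-statistic 95% intervals. Genes and DNA sequence were not analysed here, because the annotation at hand was of another build.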

Additional observations from a re-analysis of the deposited data

How the results depend on the processing

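Of 42 recomputed values, 28 stayed close to the reported value and 14 did not, where close meant within 1.5 times for counts and total lengths and within the 95% interval for medians and shares. With a minimum of 600 bp the median length was 1800 bp. With a minimum of 2 kb there were 1457 regions with a median of 3200 bp, against 8032 runs U1 in KO-NT alone and 1743 runs U1 in WT-NT alone. With 1 kb windows in place of 200 bp bins the median was 2000 bp. Leaving KO-NT out of the rule gave 5739 regions and 17519 kb, since runs that were not U2 in KO-NT then entered. Using the upper 50% of GS peaks by score left 5 regions with a peak, at a median distance of 839 kb. Requiring a peak midpoint inside the region also left 5, and 46 lay within 10 kb of a peak. With 5 bins read on each side, 82.1% of regions had U1 on at least 1 side in WT-GS (83.7% with 1 bin) and 61.8% had U2 on both sides in WT-NT (65.8% with 1 bin). U1 in WT-GS alone gave fewer runs than U1 in KO-GS, KO-NT or WT-NT alone under the 600 bp and 2 kb minimums and with segments under 1 kb joined. No paired analysis was possible because each segmentation and peak list combines its replicates, and no replicate could be left out for the same reason. The unknown depth sets no limit that could be computed here.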

Other observations

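Chromosome X was outside the rule. The same pattern there gave 150 runs of 1 kb or longer, covering 332.8 kb with a median of 1800 bp. They made up 13.1% of the 2.54 Mb of X that was U2 in KO-GS, KO-NT and WT-NT, against a mean of 2.21% over the autosomes (SD 0.304, n = 19 chromosomes). That base was small on X, since autosomes held from 7.50 Mb (chromosome 19) to 25.6 Mb (chromosome 1) of such sequence. In number and total length the runs on X lay within the autosomal range. Chromosome 19 held 59 regions and 170.8 kb, and chromosome 3 held 207 and 580.2 kb. Other patterns on X are not given here.

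The opposite pattern, U2 in WT-GS alone and U1 in KO-GS, KO-NT and WT-NT, was the most common of the 4 patterns in which 1 segmentation was U2 alone. It gave 9292 autosomal runs and 34.6 Mb, against 4139 runs for U2 in KO-GS alone, 4021 for U2 in KO-NT alone and 8717 for U2 in WT-NT alone. A KO segmentation was more often U1 alone and less often U2 alone than a WT one. U2 also covered less of the autosomes in KO-GS and KO-NT (17.6% and 17.2%) than in WT-GS and WT-NT (20.9% and 20.8%), and the part of that difference in these counts was not tested.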
